A study of Homo sapiens with 2 samples.

Results

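The genes described here are 44 that encode plasma proteins of the kind made by fetal and adult liver, among them albumin-type carriers, clotting factors, complement components and protease inhibitors. They are a list of gene symbols defined by the function of the product and chosen with earlier results of these data known. All 44 were found among the 23709 genes of the deposited table. 2 preparations of Caco-2 cells, a line from a human colorectal adenocarcinoma grown in serum-containing medium, were sequenced as 1 library each. The RNC-mRNA library holds polyadenylated RNA recovered with ribosome-nascent chain complexes, which is meant to represent mRNAs under translation. The mRNA library holds polyadenylated RNA from total RNA. No treatment or genotype separates the preparations, the labels do not say whether they came from the same culture, and 1 line with 1 preparation per level stands for the cell type. In such bulk RNA, fewer cells with a transcript and less transcript per cell cannot be told apart.

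Plasma proteins of this kind are secreted. Their mRNAs are translated at the endoplasmic reticulum, where a signal peptide leads the growing chain into the secretory pathway. The hepatocyte is their main source in the adult, and the yolk sac and fetal gut share part of the programme before birth, with alpha-fetoprotein as its best known product. Clotting and complement are cascades of proteases that circulate as inactive precursors, and serpins, which trap their target protease, are among the brakes on both.

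Levels are RPKM, read counts scaled to transcript length and to library size, so levels of different genes can be compared per length. The RNC-mRNA library held 11083302 reads and the mRNA library 9640364 reads, as recovered from the RPKM values. The translation ratio of a gene is log2((RNC-mRNA + 0.1) / (mRNA + 0.1)), with RPKM as its unit, and is given relative to the median of the 13402 expressed genes, here the genes whose RPKM averaged 1 or more across the libraries. A relative ratio of -1 is therefore a ratio 2-fold under that of the median gene. For most expressed members the relative ratio is followed by a 95% counting interval, and for most genes of other lists it is not. The interval (exact Clopper-Pearson, from the recovered reads without the added 0.1) covers counting error only. A single library stood for each level, so no difference could be set against replicates and no test was made; genes were counted as far from the median when they lay at least 2-fold away.

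Caco-2 identity was checked on markers. Of 10 intestinal epithelial markers, 9 were expressed, with a summed level of 3598 RPKM for RNC-mRNA and 3429 RPKM for mRNA. Most of that sum was KRT8 (1693 RPKM for RNC-mRNA and 1490.05 RPKM for mRNA) and KRT18 (1101 and 1163 RPKM), keratins of simple epithelia in general. The intestinal keratin KRT20 was not expressed (0.0500 and 0.977 RPKM) and LGALS4 was low (0.776 and 1.87 RPKM). VIL1 (116 and 109 RPKM), CDX2 (87.8 and 79.8 RPKM), CDH17 (58.3 and 64.0 RPKM) and CDX1 (40.2 and 35.0 RPKM) were expressed. EPCAM (273 and 244 RPKM) and CDH1 (229 and 242 RPKM) completed the list. Of 12 hepatocyte markers only 4 were expressed, namely ASGR1, ASGR2, CPS1 and G6PC (ASGR2 32.3 RPKM for RNC-mRNA and 41.9 RPKM for mRNA). G6PC (0.781 and 3.17 RPKM) and LGALS4 met the expression limit through their mRNA levels alone. The 12 summed to 50.5 RPKM in the RNC-mRNA library and 76.6 RPKM in the mRNA library. Of the other marker lists, 6 of 6 fibroblast genes, 3 of 6 immune genes and 1 of 5 endothelial genes were expressed, with summed levels for RNC-mRNA of 56.8, 25.0 and 2.07 RPKM, against 82.6, 29.7 and 4.93 RPKM for mRNA. The endothelial receptor TEK was at 0 in both libraries. The part of these markers in the results was not tested.

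Most of the 44 genes were transcribed in this intestinal line, and a few of them strongly. Of the 44, 36 were expressed, against 13402 of all 23709 genes. The 44 were chosen with earlier results of these data known, and of 26 other liver plasma proteins 7 were expressed. A mean level of at least 100 RPKM was found for 6 members, and 5.08% of all expressed genes reached it. Together the 44 summed to 2089 RPKM in the RNC-mRNA library and 2441 RPKM in the mRNA library, or 0.452% and 0.529% of all RPKM in those libraries. The 3 most abundant members, VTN, SERPINA1 and AHSG, made up 55.8% of the members' sum in the RNC-mRNA library and 56.8% in the mRNA library. The order of levels was much the same in both libraries (Spearman's rho 0.953 across the 36 expressed genes, which share both libraries and are not independent replicates).

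**Figure D1:**
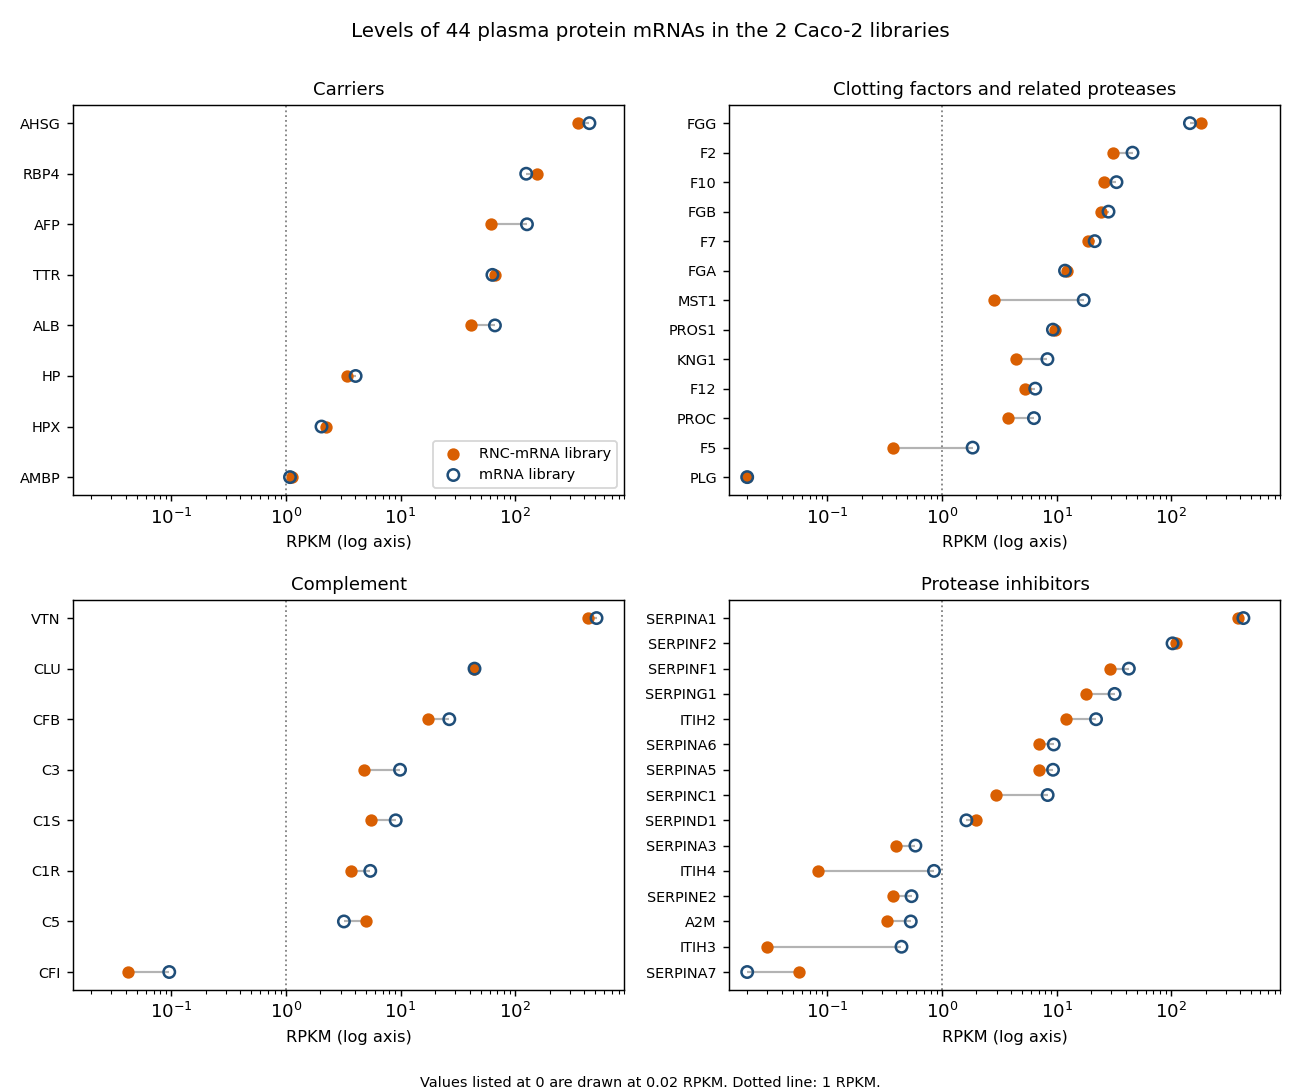
RPKM of each of the 44 genes (log axis), with filled points for the RNC-mRNA library and open circles for the mRNA library, grouped by role and ordered by mean level. Levels run from 429 RPKM in the RNC-mRNA library and 513 RPKM in the mRNA library for VTN down to 0 in both for PLG, and MST1, F5 and SERPINC1 show the widest gaps among expressed genes.

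As a group the members had slightly low translation ratios, by less than 2-fold for most. Their median relative ratio was -0.32, against 0 for all expressed genes by construction, which is a ratio 1.25-fold under the median gene. Of the 36 expressed members, 25 lay below the median and 11 above it, where 50% of all expressed genes lie below. The counting interval lay wholly below the median for 23 members (63.9%) and wholly above it for 4 (11.1%), against 30.8% and 30.9% of all expressed genes. These shares also depend on reads per gene, and the median expressed member rested on 407.5 reads in the RNC-mRNA library and 490.5 in the mRNA library.

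The share of members with large shifts was near the background, but this depended on the level limit. At least 2-fold below the median were 4 of 36 members (11.1%), against 11.8% of all expressed genes, and at least 2-fold above were 0 of 36, against 1.37%. With a limit of 5 RPKM in place of 1, 4 of 29 members were at least 2-fold below, against 5.94% of all genes. At the limit of 1 RPKM the 4 were MST1, F5, SERPINC1 and AFP. Only for MST1 and F5 did the whole counting interval lie beyond the 2-fold line. At that limit AFP lay just beyond the line and complement C3 just short of it (-1.02 and -0.99). At the limit of 5 RPKM F5 was left out, and C3 (-1.07) was among the members beyond the line. F5 met the expression limit through its mRNA level alone, so its low ratio is partly a condition of its being counted.

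**Figure D2:**
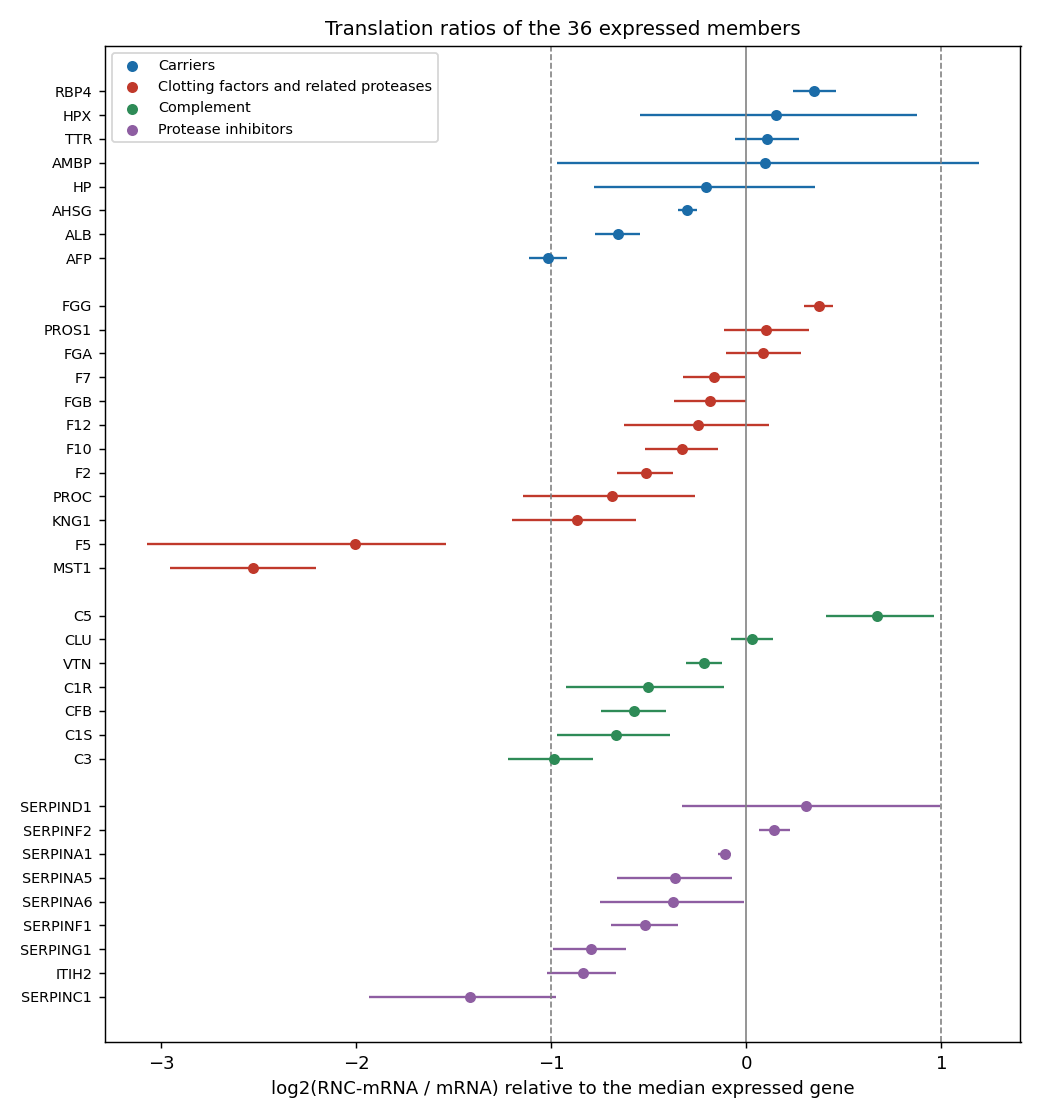
Relative translation ratio of the 36 expressed genes with 95% counting intervals, by role; the solid line is the median of all expressed genes and the dashed lines are 2-fold from it. Points lie from -2.53 (MST1) to 0.67 (C5), with 25 of 36 left of the solid line.

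The carriers were split, with albumin and alpha-fetoprotein low and the retinol-transport pair not. AFP, the main plasma protein of the fetus, had 61.1 RPKM in the RNC-mRNA library and 127 RPKM in the mRNA library. Its relative ratio was -1.02 (-1.11 to -0.92), on 1375 and 2485 reads. ALB, which encodes the main plasma protein of the adult, had 41.04 and 66.7 RPKM in those libraries (-0.66, -0.78 to -0.55). AFP mRNA therefore exceeded ALB mRNA in both libraries, by 1.49-fold in the RNC-mRNA library and 1.90-fold in the mRNA library. AHSG, which encodes fetuin-A, an inhibitor of calcium phosphate precipitation, was the most abundant carrier at 351 and 445 RPKM (-0.30, -0.35 to -0.25).

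RBP4, the plasma carrier of retinol, had 155 RPKM in the RNC-mRNA library and 125 RPKM in the mRNA library (0.35, 0.24 to 0.46). TTR, transthyretin, which binds RBP4 and thyroid hormone, had 66.4 and 63.4 RPKM (0.11, -0.06 to 0.27). RBP4 was thus above the median by more than counting error, and TTR was not distinguishable from it. The haem and haemoglobin scavengers were scarce: HPX, hemopexin, had 2.22 and 2.05 RPKM, and HP, haptoglobin, had 3.40 and 4.06 RPKM. AMBP, the precursor of alpha-1-microglobulin and bikunin, had 1.13 and 1.09 RPKM. All 3 of these intervals spanned the median. HP reads are uncertain, since the near copy HPR was listed at 4.14 RPKM in the RNC-mRNA library and 2.84 RPKM in the mRNA library. Over the 8 carriers 4 lay on each side of the median.

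Fibrinogen, the clot-forming protein, is built from 3 chains in equal number, but the RPKM values of its 3 mRNAs were far from equal. The gamma chain FGG had 184 RPKM in the RNC-mRNA library and 146 RPKM in the mRNA library (0.37, 0.30 to 0.45). The beta chain FGB had 24.3 and 28.4 RPKM (-0.19, -0.37 to -0.0034), and the alpha chain FGA had 12.3 and 11.9 RPKM (0.09, -0.10 to 0.28). FGG exceeded FGB by 7.56-fold in the RNC-mRNA library and 5.13-fold in the mRNA library, and FGA by 14.98-fold and 12.3-fold. The unequal levels were therefore present in both libraries. The counting interval of FGG did not overlap those of FGB and FGA, whereas those of FGB and FGA overlapped.

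Among the vitamin K-dependent members, prothrombin, F10, F7 and protein C were below the median by more than counting error, and protein S was not. F2, prothrombin, the precursor of thrombin, had 31.3 RPKM in the RNC-mRNA library and 46.0 RPKM in the mRNA library (-0.52, -0.66 to -0.37). F10, whose active form cleaves prothrombin, had 25.8 and 33.4 RPKM (-0.33, -0.52 to -0.14), and F7, which starts the tissue factor pathway, had 18.7 and 21.5 RPKM (-0.17, -0.33 to -0.01). The anticoagulant members differed: PROC, protein C, had 3.80 and 6.35 RPKM (-0.69, -1.15 to -0.26), and its cofactor PROS1, protein S, had 9.73 and 9.30 RPKM (0.10, -0.11 to 0.32).

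Among expressed members, the lowest relative ratios were in the remaining clotting-type genes. F5, factor V, the cofactor of activated factor X, had 0.374 RPKM in the RNC-mRNA library and 1.85 RPKM in the mRNA library. Its relative ratio of -2.01 (-3.08 to -1.54) rests on at least 19 and 82 reads. MST1, which encodes macrophage-stimulating protein, a plasminogen-like growth factor without protease activity, had 2.83 and 17.3 RPKM (-2.53, -2.95 to -2.21), on 73 and 388 reads. MST1 stood at the 22.2 percentile of expressed genes in the RNC-mRNA library and at the 66.6 percentile in the mRNA library. MST1 reads are uncertain because of its near copies: the pseudogene MST1P2 had 0.513 and 4.998 RPKM and MST1L had 0.677 and 5.87 RPKM, with relative ratios of -3.02 and -2.90. KNG1, the kininogen from which bradykinin is cut, was also low at 4.40 and 8.33 RPKM (-0.87, -1.20 to -0.57). F12, which starts the contact pathway, had 5.32 and 6.52 RPKM with an interval that spanned the median, and shares exon bases with GRK6 on the opposite strand. PLG, plasminogen, was listed at 0 in both libraries, while its near copy PLGLB1 had 0.420 and 2.03 RPKM, so reads between them are uncertain. Of 12 expressed genes in this role group 9 lay below the median (median -0.29).

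Complement mRNAs were led by 2 genes whose products restrain the terminal complex, and the early components were less abundant and lower in ratio. VTN, vitronectin, which also carries the plasminogen activator inhibitor, was the most abundant member of all, at 429 RPKM in the RNC-mRNA library and 513 RPKM in the mRNA library (-0.22, -0.31 to -0.13). CLU, clusterin, an extracellular chaperone, had 43.9 and 44.2 RPKM (0.03, -0.08 to 0.14). The RefSeq record listed for CLU, as for the inhibitor SERPINE2, is of the non-coding (NR) type. Whether its reads came from coding transcripts was not tested. CFB, factor B, the protease of the alternative pathway convertase, had 17.4 and 26.7 RPKM (-0.58, -0.75 to -0.41).

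Component C3, on which all complement pathways converge, had 4.81 RPKM in the RNC-mRNA library and 9.90 RPKM in the mRNA library (-0.99, -1.22 to -0.79). C5, a C3 homologue that opens the terminal pathway, went the other way at 5.02 and 3.21 RPKM (0.67, 0.41 to 0.96), the highest relative ratio of any expressed member. The C5 level was 1.04 times that of C3 in the RNC-mRNA library and 0.324 times in the mRNA library. On 304 and 272 reads, the levels of C5 and C3 were close to equal in the RNC-mRNA library, and C3 was the higher in the mRNA library. The proteases of the C1 complex were both below the median: C1S had 5.52 and 9.08 RPKM (-0.67, -0.97 to -0.39) and C1R had 3.70 and 5.45 RPKM (-0.51, -0.93 to -0.12). C1R shares exon bases with C1RL, C1S with EMG1 and CFB with C2, so part of their reads is uncertain. CFI, factor I, which degrades C3b, rested on 1 and 2 reads and was not expressed by the limit used. Of 7 expressed complement members 5 lay below the median (median -0.51), and without C1R, C1S and CFB the median was -0.10.

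Inhibitors ranged from one of the most abundant mRNAs of the cell to the edge of detection. SERPINA1, alpha-1-antitrypsin, the elastase inhibitor, had 385 RPKM in the RNC-mRNA library and 427 RPKM in the mRNA library, on 15068 and 14546 reads (-0.11, -0.15 to -0.08). It stood at the 98.8 and 99.0 percentile of expressed genes in those libraries. SERPINF2, alpha-2-antiplasmin, had 111 and 103 RPKM (0.14, 0.06 to 0.22), and the plasminogen gene was listed at 0 in both. SERPINF1, the antiangiogenic PEDF, had 29.02 and 42.8 RPKM (-0.52, -0.69 to -0.35).

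Of the inhibitors of clotting and complement proteases, antithrombin and the C1 inhibitor were low and heparin cofactor II was not. SERPINC1, antithrombin, the main inhibitor of thrombin, had 2.99 RPKM in the RNC-mRNA library and 8.37 RPKM in the mRNA library (-1.42, -1.94 to -0.97). SERPING1, the C1 inhibitor, had 17.9 and 32.1 RPKM (-0.80, -0.99 to -0.62), and ITIH2, a heavy chain of inter-alpha-trypsin inhibitor, had 12.0 and 22.1 RPKM (-0.84, -1.02 to -0.67). The protein C inhibitor SERPINA5 (7.03 and 9.32 RPKM) and the cortisol carrier SERPINA6 (7.08 and 9.46 RPKM) lay nearer the median, at -0.36 and -0.38. SERPINA5 shares exon bases with SERPINA4, so part of its reads is uncertain. The thrombin inhibitor SERPIND1, heparin cofactor II, was above it at 1.99 and 1.63 RPKM, with an interval of -0.33 to 0.99 that spanned the median. The mRNA of prothrombin exceeded that of its inhibitor antithrombin by 10.5-fold in the RNC-mRNA library and 5.50-fold in the mRNA library. Of 9 expressed genes in this role group, which includes the carrier SERPINA6, 7 lay below the median (median -0.38).

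The other 6 genes of the inhibitor group were not expressed by the limit of 1 RPKM. SERPINA3, alpha-1-antichymotrypsin, was the nearest to it, with 0.397 RPKM in the RNC-mRNA library and 0.587 RPKM in the mRNA library, while AMBP and F5, each at a mean of 1.11 RPKM, were the lowest members inside it. For RNC-mRNA, A2M, SERPINE2 and ITIH4 had 0.330, 0.371 and 0.0824 RPKM, against 0.535, 0.543 and 0.853 RPKM for mRNA. ITIH3 had 0.0297 and 0.444 RPKM. ITIH3 and ITIH4 rested on 1 and 3 reads in the RNC-mRNA library against 13 and 27 in the mRNA library, and their upper counting limits were -1.13 and -1.63. SERPINA7, the thyroxine-binding globulin, had 1 read in the RNC-mRNA library and 0 in the mRNA library, where 3 reads would be 0.195 RPKM.

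The low ratios were most visible at intermediate levels. Among the 14 members with a mean level from 10 to 100 RPKM, 11 lay below the median of all genes (median -0.52), against a median of 0.11 for all 5828 expressed genes of those levels. Of the 14, 2 were at least 2-fold below, against 3.36% of the 5828. They were MST1, whose reads are uncertain and whose mean was 10.05 RPKM, and AFP, just beyond the 2-fold line (-1.02). Among the 16 members from 1 to 10 RPKM the median was -0.37, against -0.18 for 6893 genes. The 6 members of at least 100 RPKM had a median of 0.02, against 0.17 for 681 genes, and ranged from -0.30 (AHSG) to 0.37 (FGG).

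**Figure D3:**
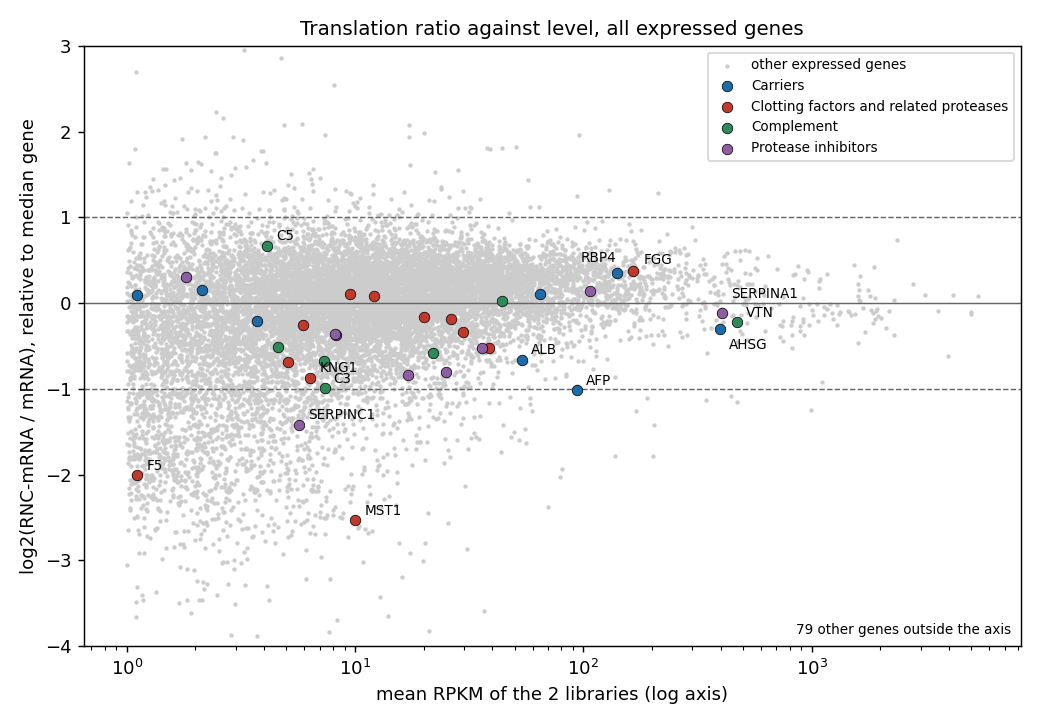
Relative translation ratio against mean RPKM (log axis) for all expressed genes (grey) and the 36 expressed members (coloured by role); 79 other genes lie outside the vertical axis. Members between 10 and 100 RPKM sit mostly under the solid line, and AFP and MST1 lie at or beyond the lower dashed line, 2-fold from the median.

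Members had shorter transcripts than the typical expressed gene. Their median transcript length was 2124 nt, against 2857 nt for 13109 expressed genes with a length, either recovered from the reads or, failing that, from GENCODE. Across the 36 members Spearman's rho between length and relative ratio was -0.21, against 0.05 for all. Coding length, known for 32 members from GENCODE, had a median of 1473 nt (1344 nt for all) and a rho of -0.40 (-0.11 for all). Transcript GC content had a median of 52.4% (50.2% for all) and a rho of -0.06 (-0.16 for all). The points share both libraries, and the values are descriptions. Of the 3 longest members, C3 and F5 were low and C5 was high.

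Several members are neighbours in the genome, and neighbours did not always have like ratios. ALB and AFP stand next to each other on chromosome 4, both low (-0.66 and -1.02), with intervals that did not overlap. FGB, FGA and FGG are neighbours elsewhere on that chromosome, with relative ratios of -0.19, 0.09 and 0.37. F7 and F10 on chromosome 13 (-0.17 and -0.33) and C1S and C1R on chromosome 12 (-0.67 and -0.51) had overlapping intervals. SERPINF2 and SERPINF1 on chromosome 17 (0.14 and -0.52) did not. SERPINA6 and SERPINA1 are adjacent on chromosome 14 (-0.38 and -0.11), with overlapping intervals.

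The promoters of the chromosome 4 neighbours are shown because these genes are expressed together in a non-hepatic line at levels that differ up to 14.98-fold. Each sequence is the 200 bases before the RefSeq transcription start (GRCh38.p14, 5′ to 3′ on the gene's strand; the upstream of 2 starts for FGB), and capitals mark exact matches on either strand to GTTAAT, the half-site of the liver-enriched factor HNF1.
AFP (chr4:73436021-73436220, plus strand): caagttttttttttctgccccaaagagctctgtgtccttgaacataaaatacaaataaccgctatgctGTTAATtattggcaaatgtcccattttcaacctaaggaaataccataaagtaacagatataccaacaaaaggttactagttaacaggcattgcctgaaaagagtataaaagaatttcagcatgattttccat
ALB (chr4:73404087-73404286, plus strand): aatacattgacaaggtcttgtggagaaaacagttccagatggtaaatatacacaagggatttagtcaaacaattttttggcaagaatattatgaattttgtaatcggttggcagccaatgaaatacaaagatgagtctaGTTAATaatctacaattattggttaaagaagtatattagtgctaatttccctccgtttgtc
FGB (chr4:154562780-154562979, plus strand): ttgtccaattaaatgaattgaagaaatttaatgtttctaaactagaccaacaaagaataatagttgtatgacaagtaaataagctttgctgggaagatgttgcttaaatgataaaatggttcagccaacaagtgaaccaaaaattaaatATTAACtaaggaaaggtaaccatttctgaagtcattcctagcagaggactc
FGA (chr4:154590743-154590942, minus strand): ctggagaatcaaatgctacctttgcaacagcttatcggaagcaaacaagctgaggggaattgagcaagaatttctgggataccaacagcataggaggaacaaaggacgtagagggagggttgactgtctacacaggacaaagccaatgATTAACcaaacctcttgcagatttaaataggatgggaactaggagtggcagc
FGG (chr4:154612657-154612856, minus strand): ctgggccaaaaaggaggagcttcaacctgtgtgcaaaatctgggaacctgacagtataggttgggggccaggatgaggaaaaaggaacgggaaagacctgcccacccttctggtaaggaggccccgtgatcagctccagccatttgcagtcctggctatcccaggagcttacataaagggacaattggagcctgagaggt
AFP has the half-site 132 bases before the start, ALB 61, FGB 51 and FGA 52, the last 2 on the opposite strand, and the FGG window has no exact match.

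RefSeq promoters were found for 33 of the 44 members, with 42 start sites, some of which overlap. The HNF1 half-site GTTAAT was in 12 of the 42 windows (28.6%), against 4.89% of 35116 windows of that length over all genes. They belong to AFP, ALB, C1R, C5, F2, FGA, FGB, PLG, SERPINA1, SERPINA6 and SERPINA7, which include PLG at 0 RPKM as well as SERPINA1. The FOXA core TGTTTAC was in 4.76% (2.32% of all), its variant TGTTTGC in 16.7% (2.49%) and the HNF4 half-site CAAAGT in 14.3% (8.11%). The HNF1 palindrome, and the longer HNF4 form CAAAGTCCA, which contains its half-site, were each in 2.38% (0.0797% and 0.282% of all). The C/EBP palindrome TTGCGCAA was in 0 windows (0.111% of all) and the looser TTNCNNAA, which covers it, in 40.5% (26.8%). TATAAA was in 9.52% (8.59%) and CCAAT in 40.5% (28.0%). All were searched on both strands, and a match describes the letters and not a bound site.

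Genes of the same pathways outside the 44 were mostly silent or weak. Of 20 other clotting and fibrinolysis genes 7 were expressed, 5 of them below the median (median -0.44). The urokinase gene PLAU was at least 2-fold below, at 4.34 RPKM in the RNC-mRNA library and 10.7 RPKM in the mRNA library (-1.24), and TFPI, the tissue factor pathway inhibitor, was the highest in ratio at 7.81 and 6.84 RPKM (0.23). The clotting factors F8 (0.0499 and 0.0689 RPKM) and F9 (0 in both) were not expressed. Of 27 other complement genes 6 were expressed, 3 on each side of the median (median -0.41), from MASP2 (0.956 and 2.03 RPKM, -0.97) to C4BPA (1.41 and 0.971 RPKM, 0.53). C4BPA met the expression limit through its RNC-mRNA level alone, so its high ratio is partly a condition of its being counted. Its counting interval (-0.25 to 1.43) spanned the median. The highest in level were C1QBP (96.6 and 70.3 RPKM, 0.50), which is mainly mitochondrial, and CFD (10.0 and 19.7 RPKM, -0.93), the activator of factor B.

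Other liver plasma proteins, 26 in number, had 7 expressed genes with 6 below the median (median -0.39). The most abundant were ORM2 (10.9 RPKM in the RNC-mRNA library and 14.5 RPKM in the mRNA library, -0.37) and SERPINA10, the protein Z-dependent inhibitor, which was also the highest in ratio (10.9 and 6.77 RPKM, 0.71). LRG1 was lowest (0.608 and 2.74 RPKM, -1.96) and met the expression limit through its mRNA level alone, as MASP2 did. ORM2 has the near copy ORM1, so its reads are uncertain. Apolipoproteins with their loading factor MTTP, the most similar set of secreted proteins, had 8 of 11 expressed genes below the median (median -0.27), close to the members' -0.32. APOA1 (1322 and 1874 RPKM, -0.46) and APOE (666 and 825 RPKM, -0.27) were more abundant than any member, APOA4 was lowest (-1.004) and APOD highest (1.05).

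Genes whose products process or export clotting factors, and membrane regulators of complement, did not share the low ratios. Of 9 processing and export genes 6 lay above the median (median 0.10) and none was 2-fold from it. The cargo receptor subunit MCFD2 had 60.9 RPKM in the RNC-mRNA library and 49.8 RPKM in the mRNA library (0.33), and the vitamin K epoxide reductase VKORC1 had 43.3 and 46.1 RPKM (-0.05). Its paralog VKORC1L1 was highest (0.66) and the convertase PCSK5 lowest (-0.37). The complement regulators CD46 (42.2 and 41.9 RPKM, 0.05), CD55 (23.9 and 17.6 RPKM, 0.48) and CD59 (18.5 and 18.7 RPKM, 0.03) were the expressed ones of 5 listed and lay above the median. With a limit of 5 RPKM, CD46 and CD59 lay below it. The other listed regulators, CR1 (0.154 and 1.18 RPKM, -2.29, on 17 and 113 reads) and CR2 (0.108 and 0.199 RPKM), were under the expression limit. The differences between lists have no test.

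**Figure D4:**
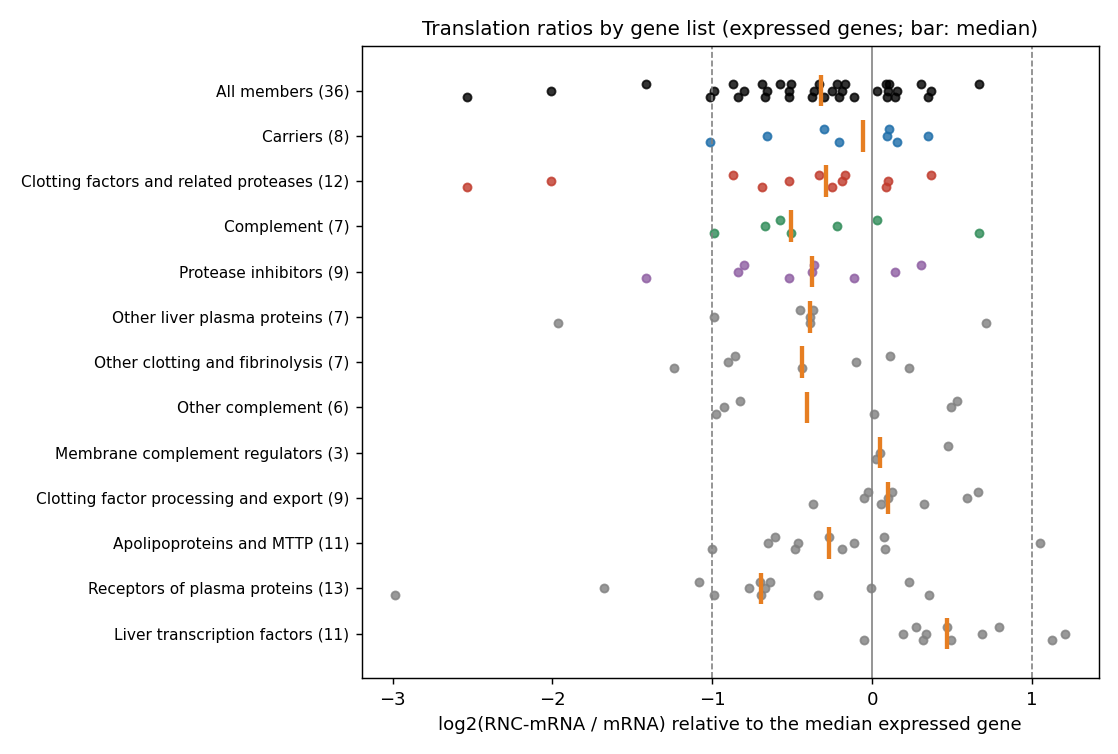
Relative translation ratios of the expressed genes of each list (number in brackets), 1 point per gene, with an orange bar at the median; dashed lines are 2-fold from the median of all expressed genes. The bar stands at -0.32 for all members, -0.27 for apolipoproteins, 0.10 for clotting factor processing and export and 0.47 for liver transcription factors.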

How the data were processed

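Poly(A) RNA of both preparations was heat-fragmented, copied with random primers and amplified by PCR, per the labels' protocols. Molecular identifiers and strand are not named there. The deposited values are RPKM per gene, computed by the authors, with 1 RefSeq record per symbol, per the file headers. The submitters' processing notes name hg19 as the build, and the mapping and counting tools are not given in the sources used here.

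Reads were recovered from the steps of the RPKM values. The library totals are the whole numbers at which genes of known GENCODE release 29 length hold 1 read. A gene's length was taken as the one within 20% of GENCODE at which both values are whole reads, within the rounding of 7 printed digits and a relative tolerance of 2e-07. This gave a length for 85.6% of expressed genes and 32 of the 36 expressed members; for transcript length as a feature, GENCODE's length was used for others where it had one. For the other 4 (F5, KNG1, VTN and CLU) the fewest reads that explain both values were used. The steps were tested on simulated data. Genes listed at 0 are limited by a floor of 3 reads.

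Every expressed member was named. For other lists of genes, the rule was the 2 highest levels and the highest and lowest ratio. Further genes (CPS1, TEK, KRT20, VIL1, CDX2, CDH17, EPCAM, CDH1, CR1, CR2, F2RL3, F8, F9, PLGLB1, LRP1, MST1R, FOXA1, ZBTB20 and ONECUT1) were picked after their values were seen. Members, lists and motifs were chosen with earlier results of these data known. Alternatives covered pseudocounts, filters, scalings and record types. Python 3.11.15, numpy 2.4.6, pandas 2.3.3, scipy 1.17.1 and matplotlib 3.10.9 were used.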

Additional observations from a re-analysis of the deposited data

How the results depend on the processing

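The members' median relative ratio stayed negative under all 10 alternatives, between -0.45 (mean RPKM of at least 5) and -0.22 (members with a near copy or a shared exon left out, an alternative chosen after seeing the data). Between 3 and 5 members were at least 2-fold below the median and 0 at least 2-fold above. The share of all genes at least 2-fold below ran from 5.94% (mean RPKM of at least 5, 4 of 29 members) to 15.8% (no filter, 5 of 43), and was 9.25% among NM records (5 of 35). With no filter on low values AFP moved to -0.91, short of the 2-fold line, and C3 passed -1 under 5 alternatives, down to -1.07. Of those 5, upper quartile scaling and scaling to a fixed sum were not centred. The medians of all genes were -0.068 and -0.039 there. F5 moved to -1.02 with a pseudocount of 1 RPKM. The median of the carriers changed sign with no filter (0.04) and without uncertain members (0.09), and that of complement moved to -0.10 without them. CLU changed sign under 3 scalings or filters (lowest -0.05), and so did the median of the membrane complement regulators under 2 (lowest -0.03). With the uncentred scalings both stayed above the median of all genes. No paired analysis was possible because each level has 1 library. Depth limits members of few reads: AMBP rested on 18 and 15 reads.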

Other observations

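Transcription factors that control liver genes lay mostly above the median, a difference from the plasma protein mRNAs that has no test. Of 16 such genes 11 were expressed, 10 of them above the median (median 0.47), and the counting interval lay wholly above it for 9, against 30.9% of all expressed genes. FOXA2, a forkhead factor of endoderm, had 29.2 RPKM in the RNC-mRNA library and 12.9 RPKM in the mRNA library (1.21, counting interval 1.02 to 1.41), and FOXA1 had 79.5 and 37.4 RPKM (1.12, 1.03 to 1.22). CEBPA had 83.9 and 49.6 RPKM (0.80, 0.70 to 0.90) and HNF4A, the most abundant, had 95.2 and 77.4 RPKM (0.34, 0.23 to 0.45). CEBPB was lowest (-0.05). ZBTB20 and ONECUT1 were among the 5 that were not expressed.

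Receptors of plasma proteins lay mostly below the median, with 11 of 13 expressed genes below the median (median -0.69). LRP1, which clears protease-inhibitor complexes, had 20.3 RPKM in the RNC-mRNA library and 41.5 RPKM in the mRNA library (-0.99, counting interval -1.06 to -0.93). MST1R, the receptor of the MST1 product, had 2.29 and 5.09 RPKM (-1.08), and F2RL2, a thrombin receptor, was lowest at 0.237 and 2.63 RPKM (-2.98). F2RL2 and F2RL3 (0.463 and 1.75 RPKM) met the expression limit through their mRNA levels alone. The transferrin receptor TFRC was highest (69.5 and 55.6 RPKM, 0.36), and the albumin and IgG receptor FCGRT had 71.4 and 73.5 RPKM (-0.01).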
